A study of Mus musculus with 4 samples.

Results

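B16-RII, a mouse melanoma culture taken from lymph node metastases after 2 rounds of injection, was compared with B16-RI, the culture of the first round from which it was derived. The comparison uses 2 of the 4 arrays of the series, 1 labelled array for each culture, chosen by their labels, and all 33012 probes of the array that are not controls. B16 melanoma arose in the C57Bl6 mouse strain. In the study, B16F1 cells were injected into the back skin of C57Bl6 mice, lymph node metastases were put into culture as B16-RI, and B16-RI cells were injected again to give B16-RII from lymph node and B16-RIIL from lung. The parental B16 culture and B16-RIIL are given below only as reference values beside the compared pair. All 4 cultures were grown in DMEM with fetal bovine serum, so the arrays measured cultured cells and not the metastases. The labels name no treatment and no engineered allele. The RNA of each culture was pooled from different passage numbers, each line is a single derivation, and the labels give no age of the mice. The study describes duplicates, but 1 array per line was analyzed here. No difference below therefore has a replicate check and none was tested. Passage through a mouse, the sampling of cells at injection, and drift in culture cannot be told apart in this design.

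Serial passage of tumor cells through an animal is a classical way to obtain lines that metastasize more readily. Cells that reach a lymph node have left the primary tumor through lymphatic vessels, survived transport and grown in a tissue rich in immune cells. Genes of matrix attachment, vessel growth, stress survival, immune recognition and pigment cell identity are therefore commonly examined in such lines. Osteopontin, encoded by Spp1, is a secreted glycoprotein that binds integrins and is the gene that the study followed.

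Detection required that the ratio of signal to noise (S/N) reached 3 and that the flag, the error code of the analyzer, did not exceed 5000. By this rule 13872 probes were detected on the B16-RI array and 14756 on the B16-RII array, with 14375 on B16 and 14855 on B16-RIIL. The median raw signal was 451 on B16-RI and 619 on B16-RII, so the B16-RII array was brighter and saw more probes. Signals are given as scaled signals, in which 1 is the median of the probes detected on every array within the same of 2 probe sets of that array. All differences are the log2 scaled signal of B16-RII minus that of B16-RI. Scaled signals compare lines for 1 probe and not 1 probe with another. The melanocyte markers fit the label of the lines, because 7 of 7 markers on the array, among them Tyr, Tyrp1, Dct, Pmel and Mitf, were detected on all 4 arrays.

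Most genes had nearly the same signal in both lines. Over 7730 genes detected on both arrays, represented by 1 probe each, the median difference was 0.00 with a standard deviation of 0.37, and 5% of genes lay below -0.60 and 5% above 0.56. Of these genes 74 were at least 2-fold higher in B16-RII (0.957%) and 110 were at least 2-fold lower (1.42%). When genes detected on either array were included, 492 of 9205 were called higher (5.34%) and 515 lower (5.59%). Most of these calls came from genes seen on 1 array only, as 418 were detected on B16-RII alone (4.54%) and 405 on B16-RI alone (4.4%). Counted over probes instead of genes, 1109 of 16109 were higher (6.88%) and 1328 lower (8.24%). The balance of the directions depended on the scaling. Higher calls made up 48.9% of all calls with the scaling used here, 49.8% with 75th percentile scaling, 59.0% with quantile normalization, 64.6% with median scaling and 65.4% with the deposited normalized signals. The deposited signals placed the median B16-RII probe 0.36 above B16-RI in a set of 16488 probes and 0.03 above it in the other set of 16524. No statement on which direction prevailed is made for this reason.

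**Figure D1:**
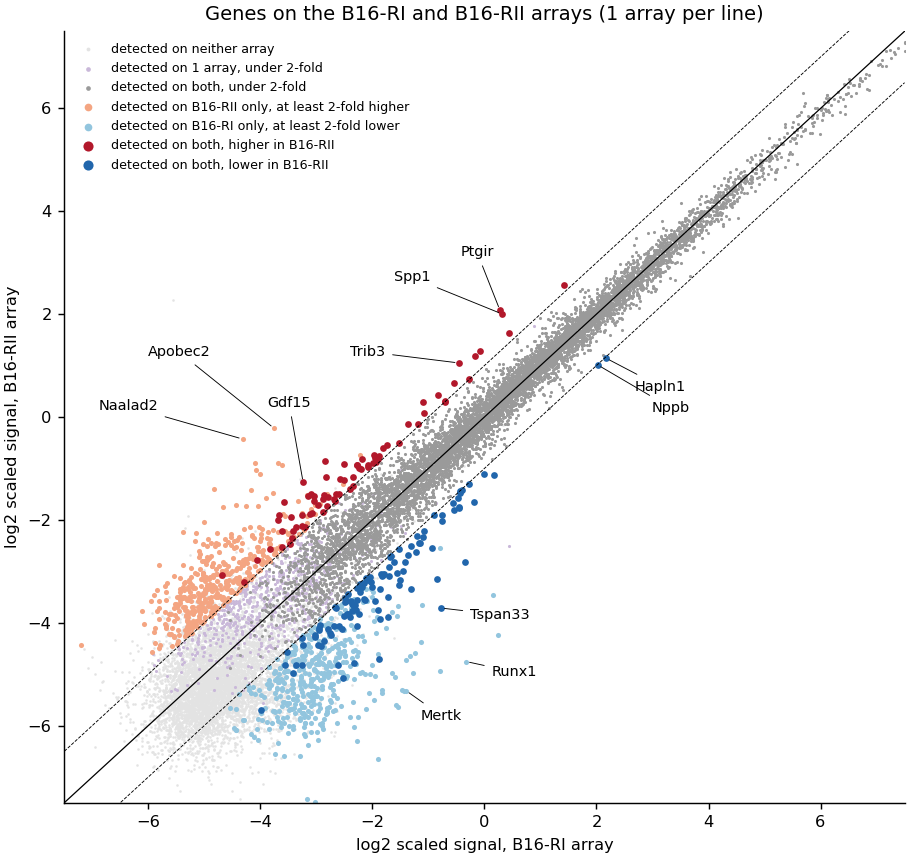
Log2 scaled signal of every named gene on the B16-RI array (horizontal) and the B16-RII array (vertical), 1 array per line. The solid line marks equal signals and the dashed lines mark 2-fold differences. The cloud narrows with signal, and most genes beyond the dashed lines were dim or detected on 1 array only, while Spp1, Ptgir, Trib3, Nppb and Hapln1 lay outside at higher signals.

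Genes with more than 1 probe gave the only measure of error within these arrays. In 535 genes with exactly 2 probes detected on both arrays, the differences of the paired probes correlated weakly across genes (Pearson's r = 0.09), and the spread of a single probe was 0.34 log2 units (SD). At an S/N of at least 20 the correlation over 240 genes was 0.38 and the spread 0.18. These correlations are across genes of the same arrays, and genes are not independent replicates. Of 19 genes with a probe beyond 2-fold, the other probe went the same way in 12, and 1 gene, Spp1, was beyond 2-fold with both probes. A 2-fold difference at 1 probe was thus seldom matched by a 2-fold difference at the other. Among genes whose paired probes had an S/N of at least 10, Bnip3, a mitochondrial protein of the hypoxia response, had the highest mean difference, with 0.85 and 0.74. Ddx6 (0.50 and 0.64), Tmpo (0.34 and 0.65) and Sort1 (0.35 and 0.54) followed, and Fau stood at the other end with -1.09 and -0.18.

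Spp1 was higher in B16-RII than in B16-RI with both of its probes. The brighter probe had a scaled signal of 0.122 in B16, where it was not detected, 1.24 in B16-RI, 4.01 in B16-RII and 4.91 in B16-RIIL. Between the compared lines it was 3.23-fold higher, a difference of 1.69, with S/N values of 11.5 and 37.2. The other probe was not detected in B16 (0.0322) and gave 0.239 in B16-RI, 0.512 in B16-RII and 0.580 in B16-RIIL, a difference of 1.10 between the compared lines. The probes thus placed the 4 lines in the same order, and B16-RII lay nearer to B16-RIIL than to B16-RI with each. Across the scalings the difference of the brighter probe stayed between 1.63 and 1.94.

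To set the bright part of the comparison apart, genes with an S/N of at least 10 on both arrays were counted, a limit chosen after the values were seen. Of 5816 such genes 17 were at least 2-fold higher in B16-RII (0.292%) and 10 at least 2-fold lower (0.172%), and the differences had a standard deviation of 0.27. The prostacyclin receptor Ptgir was highest among them, with scaled signals of 1.51 in B16, 1.21 in B16-RI, 4.23 in B16-RII and 2.67 in B16-RIIL. Its log2 difference of 1.8 exceeded that of Spp1 (1.69). Next came Trib3 (1.51) and Chac1 (1.36), genes of the amino acid stress response described below, and Slc4a8 (1.39), a sodium-driven bicarbonate exchanger. Khnyn, which takes part in the antiviral decay of RNA, was 1.34 higher. Clu, which encodes the secreted chaperone clusterin, had 2.13 in B16, 2.68 in B16-RI, 5.93 in B16-RII and 12.3 in B16-RIIL. It was 2.21-fold higher in B16-RII than in B16-RI and highest in the lung line. Oca2, a melanosomal transport protein, was 1.15 higher in B16-RII than in B16-RI, but its 0.574 in B16-RII remained under the 0.994 of parental B16. The cytokine gene Il17b (1.19), the muscle creatine kinase gene Ckm (1.2), Mfsd13a (1.26), Tor3a (1.15), the glutathione transferase gene Gsta4 (1.04), the histone gene H3c6 (1.03), Prxl2a (1.01) and Dnajc22 (1.00) were other described members, and the last 3 were just under 2-fold with quantile normalization. The probe of H3c6 may also read near-identical histone genes.

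Among the well measured genes that were lower in B16-RII, Nnmt, which methylates nicotinamide, had scaled signals of 3.79 in B16, 0.733 in B16-RI, 0.293 in B16-RII and 0.680 in B16-RIIL. It was 2.50-fold lower in B16-RII than in B16-RI and lowest in B16-RII of all lines. Cyp26b1, which degrades retinoic acid, went from 1.12 in B16-RI to 0.459 in B16-RII, a difference of -1.29. Hapln1 and Hapln2 encode link proteins that hold hyaluronan and proteoglycans together, and their differences were -1.02 and -1.01. Hapln1 was 0.278 in B16, 4.49 in B16-RI, 2.21 in B16-RII and 2.07 in B16-RIIL, so that both lines of the later round lay between B16 and B16-RI. Col1a2, a chain of type I collagen, was 0.412 in B16, 0.740 in B16-RI, 0.359 in B16-RII and 0.757 in B16-RIIL, with a difference of -1.04. In bulk RNA, fewer cells of a type and less RNA per cell cannot be told apart, which applies here to any fibroblasts among the cultured cells. Nppb, which encodes a natriuretic peptide, was 4.06 in B16-RI, 2.02 in B16-RII and 4.01 in B16-RIIL, and B16-RII was again the lowest line. The serine protease gene Prss23 was also lower (-1.11), as was Id1 (-1.10), an inhibitor of differentiation factors that responds to BMP signals. Of the lower genes named here Nnmt and Cyp26b1 stayed beyond 2-fold under every scaling. The others lost the call, with the deposited signals giving -0.60 for Hapln1, -0.59 for Hapln2, -0.59 for Nppb, -0.69 for Prss23 and -0.68 for Id1, and median scaling giving -0.80 for Col1a2.

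**Figure D2:**
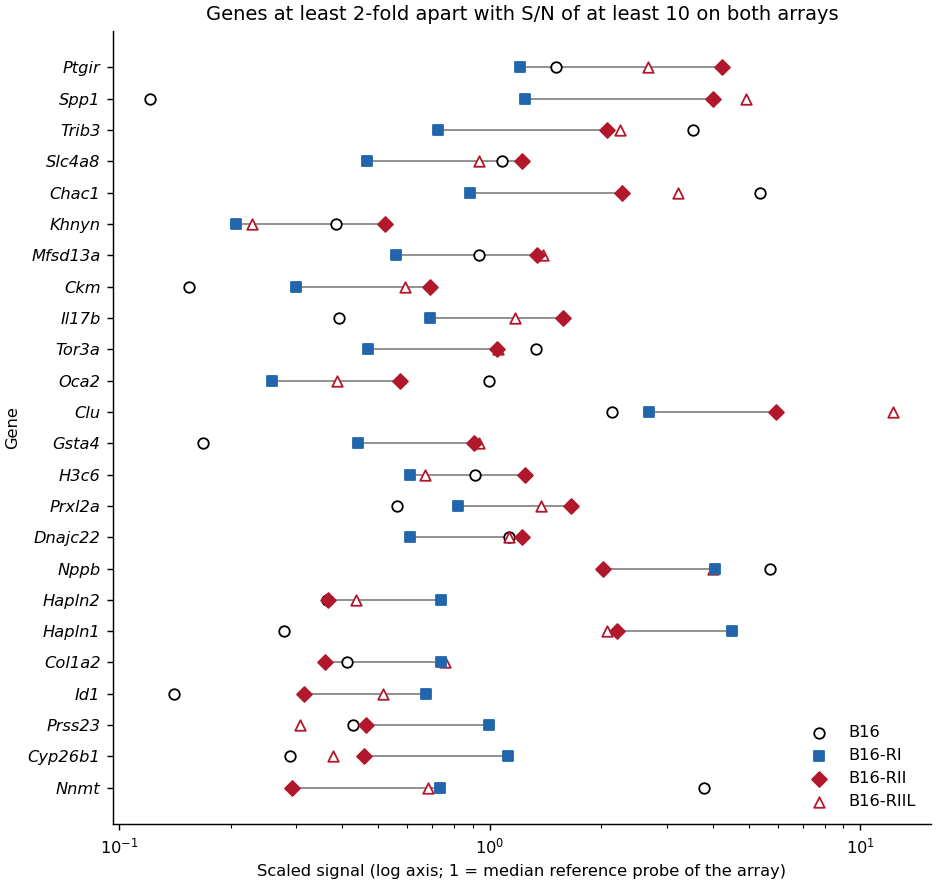
Scaled signal (log axis) of the described genes that were at least 2-fold apart between B16-RII (red diamonds) and B16-RI (blue squares) with an S/N of at least 10 on both arrays, 1 array per line. Open circles mark B16 and open triangles B16-RIIL, the gray line joins the compared pair, and the genes are sorted by difference. Ptgir and Spp1 are at the top with differences of 1.8 and 1.69, and Nnmt is at the bottom with -1.32.

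Among all genes detected on both arrays, whatever their S/N, the largest increases were in Emp1 (1.99), a membrane protein of epithelial cells, Gdf15 (1.96), a stress-induced cytokine, and Rlbp1 (1.92), which carries retinaldehyde. Each was dim in B16-RI, with S/N values of 4.41, 4.53 and 4.01. Gdf15 had scaled signals of 0.884 in B16, 0.106 in B16-RI, 0.414 in B16-RII and 0.845 in B16-RIIL, and B16-RI was therefore the low line. The DNA polymerase gene Poll (1.77), Myoz1 (1.68), the class I histocompatibility gene H2-D1 (1.66), Nav2 (1.61), Car9 (1.59) and the lipid droplet gene Fitm1 (1.59) were next, beside Ptgir and Spp1. H2-D1 belongs to a family of closely similar genes, and its probe may read more than 1 of them.

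The genes with the largest decreases all had an S/N under 10 on B16-RII. The tetraspanin gene Tspan33 had a scaled signal of 0.584 in B16-RI (S/N 16.1) and 0.0762 in B16-RII (S/N 5.05), a 7.67-fold decrease, with 0.0421 in B16 and 0.162 in B16-RIIL. Adamts10, a matrix metalloprotease gene, was 7.03-fold lower, and Lims2, an adaptor of focal adhesions, was 5.57-fold lower with 0.789 in B16-RI and 0.142 in B16-RII. Nek5 (-2.54), the CTP synthase gene Ctps2 (-2.46), the histone gene H2ac11 (-2.21), Prss22 (-2.16), Smtnl1 (-2.06), Cntrob (-1.85) and the splicing regulator Esrp2 (-1.80) were the other described genes. Nek5 and Esrp2 carried a flag of 64 on B16-RI, the meaning of which is not given in the sources used here. Tspan33, Adamts10, Nek5, Lims2, Ctps2, Prss22 and Esrp2 were not detected in parental B16. These 7 genes had their highest signal of the 4 lines in B16-RI, as did Smtnl1 and Cntrob, which were detected in B16.

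A further 418 genes were detected on B16-RII, not on B16-RI, and at least 2-fold higher. Of these, 137 were also detected on B16, 176 on B16-RIIL and 191 on neither. Over all 15369 genes 54.9% were detected on B16, 56.6% on B16-RIIL and 5963 genes on neither. Folds written as at least use a floor of the whole array and not of the probe. True differences of dim genes can therefore be smaller. The median S/N of the 418 genes on B16-RII was 5.07. Apobec2, a member of the cytidine deaminase family, was the best measured of those with a bound of at least 4-fold. One Apobec2 probe gave 0.0739 in B16-RI, where its S/N of 2.98 was just under the detection limit, 0.860 in B16-RII and 1.39 in B16-RIIL, a difference of at least 11.6-fold. The other Apobec2 probe was at least 5.64-fold higher and, unlike the first, was detected in B16, at 0.0729. Bcas1 (at least 6.93-fold), Mcoln3 (at least 6.72-fold), an endolysosomal cation channel, and Fbp2 (at least 7.58-fold), the muscle form of fructose bisphosphatase, were undetected in B16 and B16-RI and detected in both lines of the later round. Naalad2, a membrane peptidase, had a scaled signal of 0.743 in B16-RII and 0.136 in B16-RIIL and was at least 14.8-fold higher in B16-RII than in B16-RI. The astrocyte filament gene Gfap (at least 7.48-fold), the innate immune receptor gene Tlr1 (at least 10.8-fold), the small GTPase gene Rab17 (at least 6.69-fold) and Slc12a8 (at least 4.32-fold) were also not detected in B16 or B16-RI. The other probe of Tlr1 went the same way, by 3.07. Slc12a8 carried a flag of 64 on B16-RII. Bcas1 and Slc12a8 had S/N values of 2.79 and 2.92 on B16-RI, just under the detection limit. Fgd2, an exchange factor for Cdc42, differed from these in being detected in B16 (0.432), lost in B16-RI (0.0734) and present in B16-RII (0.36).

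In the other direction 405 genes were detected on B16-RI, not on B16-RII, and at least 2-fold lower in B16-RII. Of these, 82 were also detected on B16, 94 on B16-RIIL and 268 on neither, and their median S/N on B16-RI was 4.15. Of the 200 with a bound of at least 4-fold, 147 were detected on neither B16 nor B16-RIIL and 41 carried a flag other than 0 on B16-RI, against 28 and 12 of the 76 genes with such a bound in the opposite direction. These genes were chosen for detection on B16-RI. Over all probes B16-RI had the fewest detected on 1 array alone, 828 against 971 on B16-RII, 1096 on B16 and 1190 on B16-RIIL. The best measured was Mertk, a receptor kinase that takes part in the clearance of dying cells, with 0.380 in B16-RI (S/N 25.5, flag 0) and no detection on the other 3 arrays, where it lay between 0.0250 and 0.0376. It was at least 15.2-fold lower in B16-RII. Tex19.1, known from germ cells, was at least 16.2-fold lower, and the olfactory receptor gene Olfr368 at least 9.53-fold lower, both with a flag of 0 and no detection elsewhere. The transcription factor gene Runx1 (at least 21.5-fold), Nwd1 (at least 17.2-fold), Islr2 (at least 4.93-fold) and Rmnd5a (at least 4.62-fold) carried a flag of 64 on B16-RI. The other 3 genes of this group were clones or predicted genes and are not described.

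Gene lists were described by counts and by their median over genes detected on both arrays, relative to the median of all genes. The background for the counts is the 5.34% of genes called higher and 5.59% called lower. Many members called from 1 array only were near the detection limit. A list was described as shifted from 0.25 log2 units onward. By this measure 5 of 28 lists were shifted, namely complement, hypoxia with glycolysis, interferon-stimulated genes, matricellular proteins and vessel growth factors. The medians of 12 of the other lists changed sign under at least 1 alternative, so that no direction is read from them.

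**Figure D3:**
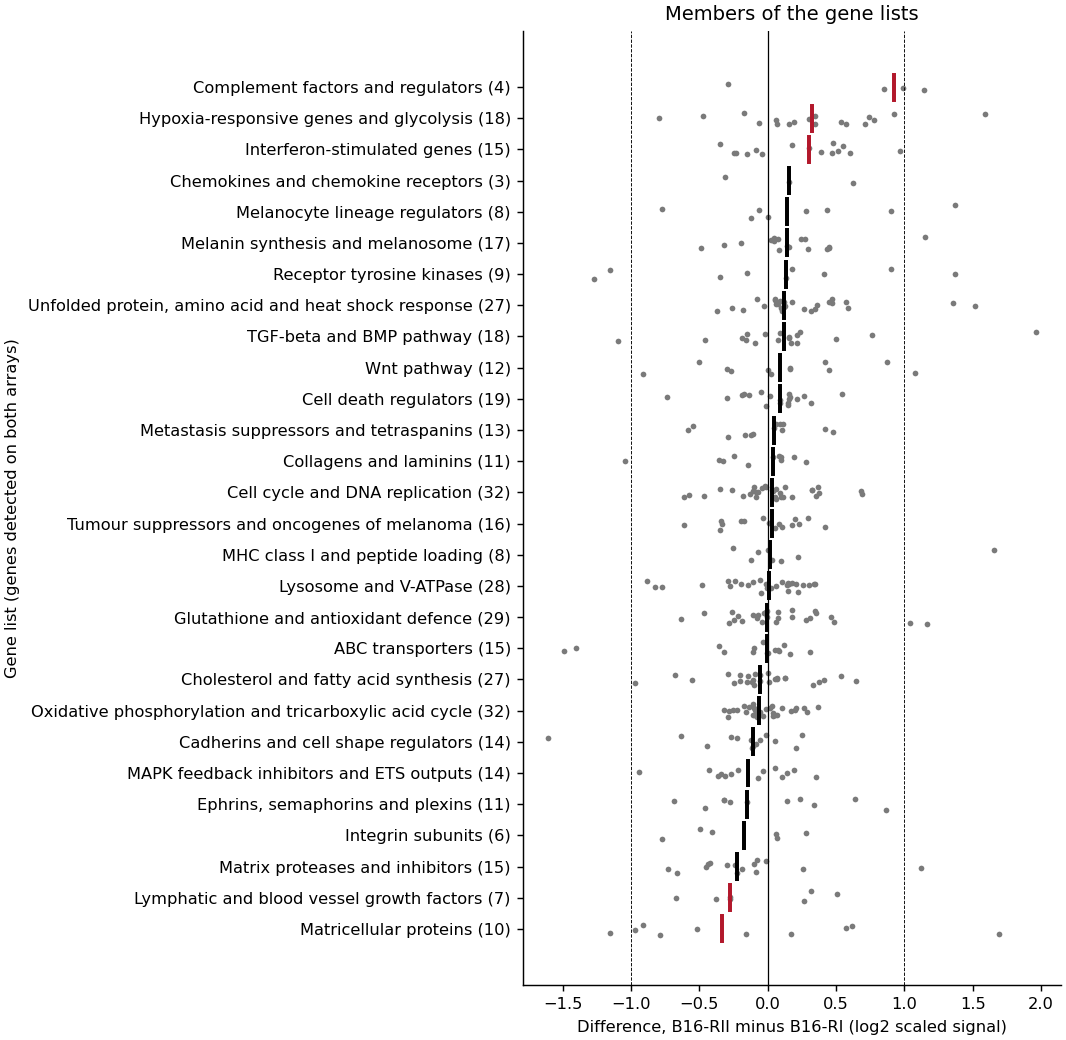
Difference between B16-RII and B16-RI (log2 scaled signal) of each gene detected on both arrays (points), by gene list with the number of such genes in brackets. Thick bars are list medians, drawn in red for the 5 lists described as shifted, and the dashed lines mark 2-fold differences. Complement, hypoxia and interferon lists stand at the top and matricellular proteins at the bottom.

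Hypoxia-responsive and glycolytic genes had a higher list median in B16-RII. Hypoxia-inducible factors bind a short core motif, ACGTG, near genes that adapt cells to low oxygen. Of 18 list members detected on both arrays 14 lay above 0, and the list median was 0.32 above that of all genes, between 0.32 and 0.39 under every alternative. Of 23 members detected on either array 4 were called higher and 1 lower. Car9, the carbonic anhydrase that is induced by hypoxia at the cell surface, had scaled signals of 0.130 in B16, 0.176 in B16-RI, 0.528 in B16-RII and 1.25 in B16-RIIL. It was 3.01-fold higher in B16-RII than in B16-RI and highest in the lung line. Pfkfb4, a regulator of glycolytic flux, was at least 4.07-fold higher, and the lactate exporter gene Slc16a3 at least 2.63-fold higher, and both were also detected in B16. Fbp2, the remaining member called higher, acts in the opposite direction to glycolysis. The glucose transporter gene Slc2a3 was at least 3.12-fold lower. Below the 2-fold limit, Pdk1, which restrains pyruvate use in mitochondria, differed by 0.93, Bnip3 by 0.85 and 0.74 with its paired probes, Pfkl by 0.78 and Hk1 by 0.71. Not every member followed, since Ldha differed by 0.07, Slc2a1 by -0.06, Eno1 by -0.47 and Pfkp by -0.79. The promoters of Car9 and Bnip3 are shown because they hold the ACGTG motif, which is set in capitals on whichever strand it was read. They are RefSeq sequences of build GRCm38.p6, each with 250 bases before and 50 after the start of the gene. Car9 is chr4:43506776-43507075 on the + strand and Bnip3 is chr7:138909457-138909756 on the - strand.
Car9: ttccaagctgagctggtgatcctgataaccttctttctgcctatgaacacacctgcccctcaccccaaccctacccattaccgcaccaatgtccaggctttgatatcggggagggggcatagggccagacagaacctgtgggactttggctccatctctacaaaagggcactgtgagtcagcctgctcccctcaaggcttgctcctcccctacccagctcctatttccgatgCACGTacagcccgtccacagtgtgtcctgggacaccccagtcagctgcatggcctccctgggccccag
Bnip3: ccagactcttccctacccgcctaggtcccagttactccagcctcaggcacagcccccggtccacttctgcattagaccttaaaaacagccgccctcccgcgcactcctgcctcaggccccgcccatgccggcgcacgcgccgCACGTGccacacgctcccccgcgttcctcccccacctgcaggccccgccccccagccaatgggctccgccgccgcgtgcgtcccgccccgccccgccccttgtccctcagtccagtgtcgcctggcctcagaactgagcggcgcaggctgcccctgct
The match of Car9 began 18 bases before the start. Bnip3 had 2 matches, 1 on each strand, that overlap in a palindrome beginning 108 bases before the start. On either strand the motif occurred in 23 of 44 promoters of the list and in 19.6% of 32851 promoters in the RefSeq table. A match is a description of the sequence and not evidence of binding.

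Trib3 and Chac1 were higher in B16-RII among genes of the amino acid and unfolded protein stress response, a list whose median lay 0.12 log2 units above all genes, or 0.26 with the deposited signals. The transcription factors Atf4 and Ddit3 switch on such genes when amino acids or protein folding capacity run short. Trib3, a pseudokinase gene induced by this response, had scaled signals of 3.55 in B16, 0.726 in B16-RI, 2.07 in B16-RII and 2.25 in B16-RIIL. Chac1, an enzyme that breaks down glutathione, had 5.37, 0.887, 2.27 and 3.23 in the same order of lines. B16-RI was the lowest line for both genes, and B16-RII lay between B16-RI and B16. Ddit3 followed the same order of lines with 4.34, 1.24, 1.86 and 3.16, a difference of 0.59, and Sesn2 differed by 0.57. Atf4 itself differed by 0.06, Asns by 0.27 and Hspa5, the main chaperone of the endoplasmic reticulum, by 0.12. Of 27 members detected on both arrays 22 lay above 0, with a list median of 0.12 above all genes, and 2 of 29 detected on either array were called higher and 0 lower. The promoters of Chac1 and Trib3 are shown because they hold the composite element TGATGNAA, to which Atf4 binds together with C/EBP factors. Matches, which lie on the reverse strand in both, are set in capitals. Chac1 is chr2:119350992-119351291 on the + strand and Trib3 is chr2:152344011-152344310 on the - strand of GRCm38.p6.
Chac1: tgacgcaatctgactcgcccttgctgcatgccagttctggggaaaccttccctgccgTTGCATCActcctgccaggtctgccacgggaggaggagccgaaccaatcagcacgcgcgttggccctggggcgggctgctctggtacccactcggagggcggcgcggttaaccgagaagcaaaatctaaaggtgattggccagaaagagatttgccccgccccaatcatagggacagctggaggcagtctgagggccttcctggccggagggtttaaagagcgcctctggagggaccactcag
Trib3: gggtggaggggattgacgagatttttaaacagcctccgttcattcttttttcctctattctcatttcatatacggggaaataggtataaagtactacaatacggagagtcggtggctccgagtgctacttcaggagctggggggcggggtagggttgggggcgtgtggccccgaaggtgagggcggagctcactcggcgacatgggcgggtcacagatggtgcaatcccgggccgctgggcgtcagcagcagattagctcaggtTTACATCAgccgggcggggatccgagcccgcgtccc
The match began 193 bases before the start in Chac1 and 14 bases after it in Trib3. On either strand the element occurred in 5 of 36 promoters of the list and in 3.97% of all promoters.

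Immune genes gave a mixed picture. Interferon-stimulated genes detected on both arrays had a median 0.30 above all genes, with 9 of 15 above 0 and a range of 0.30 to 0.39 under the alternatives. Irf9, a subunit of the interferon-activated transcription factor, was the most different of them with scaled signals of 0.208 in B16-RI and 0.407 in B16-RII (0.97), and B16 was at 0.434. Ifitm3 (0.60), Irf1 (0.55) and Isg15 (0.48) were higher by less, and Mx1 (-0.35) and Dhx58 (-0.25) were lower. The members called at 2-fold were all detected on 1 array only, with Oasl1, Mx2 and Iigp1 higher and Usp18 lower out of 23, and Usp18 was under 2-fold with quantile normalization (-0.94), median scaling (-0.94) and the deposited signals (-0.81). Their S/N on the brighter array was between 3.0 and 3.71, at the edge of detection. In the class I histocompatibility list H2-D1 was higher and Psmb9, an immunoproteasome subunit, was at least 4.95-fold lower, with 7 further members between -0.25 and 0.22. Psmb9 had an S/N of 3.48 on B16-RI, near the detection limit. The complement list held only 4 genes detected on both arrays. Clu was called higher, and Cfi, which inactivates complement fragments (0.99), and C2 (0.85) lay just under the limit, while Cr1l was at -0.29. Its median was 0.92 above all genes. Of 9 detected chemokine genes and receptors 0 were called higher and 3, Ccr6, Ackr3 and Ccl2, were lower, each with an S/N of 6.0 or less on B16-RI and no detection on B16-RII.

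Matricellular proteins modulate the attachment of cells to matrix. Of 10 detected members 1, Spp1, was called higher and 1, Ccn2, lower, with 6 below 0 and 4 above, and the median was 0.34 below all genes. Ccn2, the connective tissue growth factor gene, was 0.593 in B16-RI, 0.267 in B16-RII, 0.145 in B16 and 0.140 in B16-RIIL, a difference of -1.15. Its call ended at -0.73 with the deposited normalized signals and at -0.86 with median scaling. Fn1, which encodes fibronectin, went from 2.21 to 1.13 (-0.97) and was close to 1.15 in B16. Under 2-fold, Ccn4 stood at -0.91, Ccn1 at -0.79, Lgals1 at -0.52, Sparcl1 at 0.62 and Fbln1 at 0.57. When genes with an S/N under 10 were left out, the list median was only 0.16 below all genes. Among matrix proteases and inhibitors 13 of 15 members lay below 0, with a median 0.23 below all genes, or 0.10 below with the deposited signals. Mmp2 (-0.67), Mmp14 (-0.42) and Adam9 (-0.73) were lower by less than 2-fold, the inhibitor gene Timp1 was called higher (1.12, flag 64 on B16-RII), and Plaur, the urokinase receptor gene, was at least 2.78-fold lower (S/N 4.39 on B16-RI). Collagens and laminins had a median of 0.04 above all genes, or 0.09 below with the deposited signals, with Col1a2 as the only called gene of 14. The integrin subunits Itgb3 and Itgb7 were lower by at least 5.37-fold and 2.78-fold, as 2 of 9 detected members, while the 6 members detected on both arrays differed by -0.78 (Itga8), -0.50 (Itga6), -0.41 (Itgb2), 0.06 (Itga9), 0.07 (Itgb1) and 0.28 (Itga4). Itgb3 and Itgb7 had S/N values of 5.62 and 3.43 on B16-RI. Among cadherins and cell shape regulators 11 of 14 members lay below 0. S100a6, a calcium-binding protein of motile cells, was lower (-1.61), Snai1, a repressor of epithelial genes, was lower by at least 3.61-fold, and Cdh2, encoding N-cadherin, was at -0.64. Snai1 had an S/N of 3.73 on B16-RI, near the detection limit.

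Growth factors of lymphatic and blood vessels included 0 genes called in either direction out of 7 detected. The median was 0.28 below all genes, but only 0.01 below among members with an S/N of at least 10. Angpt2, an antagonist of the vessel-stabilizing factor angiopoietin 1, was lowest with 0.642 in B16-RI and 0.402 in B16-RII (-0.67). The lymphatic growth factor gene Vegfc differed by 0.26, Vegfb by 0.32 and Vegfa by 0.50, and Vegfa was dim on both arrays with S/N values of 4.0 and 3.54. Vegfd, Hgf, Fgf2 and Pgf were not detected on either array.

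Among pigment cell genes Tyr, the key enzyme of melanin synthesis, was 0.589 in B16-RI and 0.609 in B16-RII, and Pmel, the fibril protein of the melanosome, was 54.5 and 57.4. In the melanin list 1 of 18 detected genes, Oca2, was called higher and 0 lower, 14 of 17 lay above 0, and the median was 0.13 above all genes. Of 9 detected lineage regulators, Met, the receptor of hepatocyte growth factor, was higher (1.37), with 0.223 in B16, 0.167 in B16-RI, 0.432 in B16-RII and 0.539 in B16-RIIL. Foxd3 was at least 4.07-fold lower with a flag of 64 on B16-RI. Mitf, the main regulator of the lineage, differed by 0.28 and Kit, the stem cell factor receptor, by 0.90. Receptor tyrosine kinases had 1 member called higher, Met, and 4 called lower, Mertk, Tyro3, Pdgfrb and Ntrk2, out of 12 detected. Pdgfrb was under 2-fold with median scaling (-0.99) and the deposited signals (-0.85), and Ntrk2 with median scaling (-0.91) and quantile normalization (-0.99). Mertk and Tyro3 belong to 1 receptor family, and its other member Axl was at -0.35. Of 19 detected MAPK feedback and output genes 3 were higher, Spred2, Etv5 and Fosl1, and 2 lower, Egr3 and Plaur, all of them seen on 1 array only, Spred2 with a flag of 64 on B16-RII. Melanoma tumor suppressors and oncogenes had 1 called in each direction, Gnaq and Bcl2, out of 18. Both probes of Bcl2, an inhibitor of cell death, were lower, at -1.12 and -1.71, and the better measured one was at -0.88 with median scaling and -0.87 with quantile normalization.

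Signaling lists had medians within 0.16 of all genes. In the TGF-beta and BMP list Gdf15, Bmp4 (at least 5.47-fold) and Smad1 (at least 2.85-fold) were higher and Id1 was lower, out of 20 detected. The S/N of Smad1 on B16-RII was 3.01, at the detection limit, and that of Bmp4 was 4.99. Id3, a relative of Id1, went the other way with 0.76. In the Wnt list the receptor gene Lrp5 was higher (1.08), while the ligand gene Wnt5a (at least 4.34-fold), the antagonist gene Sfrp1 (at least 4.62-fold) and Fzd4 (at least 2.79-fold) were lower, out of 15. Wnt5a, Sfrp1 and Fzd4 had S/N values of 4.06, 3.96 and 3.8 on B16-RI. Sema7a and Sema4b were higher and Sema3e was lower among 17 detected guidance genes. Cell death regulators had 2 members higher, Casp4 and Birc3, and 1 lower, Bcl2, out of 23, and Casp4 carried a flag of 64 on B16-RII. Metastasis suppressors and tetraspanins had 0 calls in 13, with the tetraspanin gene Cd151 at -0.58 and Nme1 at -0.12.

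Housekeeping and metabolic lists differed little. Cholesterol and fatty acid synthesis had 0 calls among 27 genes, oxidative phosphorylation had 2 higher (Uqcrc1 and Sdhb) of 34, and their medians were each within 0.07 of all genes. Uqcrc1 was at least 9.19-fold higher, but with a flag of 64 on B16-RII, and it was not detected in B16 (0.107). In the cell cycle list Cdk2 was called higher and Tyms, the thymidylate synthase gene, lower out of 34, and the median was 0.03 above all genes. Glutathione and antioxidant genes had 2 of 32 higher, Gsta4 and Mgst1, and 0 lower. Mgst1 had 1.19 in B16, 0.159 in B16-RI, 0.355 in B16-RII and 0.135 in B16-RIIL. Lysosomal genes had 2 of 31 higher, Mcoln3 and the cathepsin gene Ctsh. Among 18 detected ABC transporters Abcc5 (-1.49) and the multidrug transporter gene Abcg2 (-1.40) were lower and Abca8b was higher. Abcg2 had scaled signals of 1.06 in B16, 0.427 in B16-RI, 0.161 in B16-RII and 0.0297, not detected, in B16-RIIL, and B16-RII stood between the other cultures derived from B16.

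Markers of other cells that a lymph node culture could hold were examined on both arrays. Of 10 fibroblast markers 2 were detected on B16-RI and 3 on B16-RII, with summed scaled signals of 1.00 and 0.547. Parental B16 had 4 detected and B16-RIIL 3, with sums over the same genes of 0.757 and 0.974. In B16 Col1a2 was 0.412 and Pdgfrb 0.117, both detected. Col1a2 (-1.04) and Pdgfrb (-1.27) were called lower, though neither with median scaling, and Dcn, Lum, Pdgfra and Thy1 were not detected on either array. The part of fibroblasts in the lower Col1a2 and Pdgfrb was not tested. Of 11 endothelial markers 0 and 1 were detected, of 11 macrophage markers 1 and 2, and of 7 lung epithelial markers 0 on either array. Of 10 lymphocyte markers 5 were detected on B16-RI and 4 on B16-RII, with summed scaled signals of 5.54 and 5.16. The 4 detected on both arrays differed by -0.14 to 0.64, and Cd3e, Cd3g, Cd79b and Ms4a1 were undetected on both. The remaining detected marker, seen on B16-RI alone with a flag of 64, was called lower.

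By chromosome, the medians over genes detected on both arrays stayed within 0.09 of that of all genes. Chromosome 19 was highest, with 260 genes at a median of 0.08 above all genes, and chromosome 18 lowest, with 175 genes at -0.07. Among genes detected on both arrays, those of chromosome 19 with the largest increases were Poll (1.77), Mfsd13a (1.26), Lrp5 (1.08), Nt5c2 (0.97) and Bscl2 (0.93).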

How the data were processed

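RNA of the cultured lines was hybridized by the authors to Applied Biosystems Mouse Genome Survey Microarrays, which give 1 chemiluminescence signal per probe, and 1 array matched each line. For 33012 probes the authors deposited a raw intensity, a normalized intensity, and an S/N and a flag that are scores of the analyzer. The deposited normalized intensity equals the raw value over a constant that differs between 2 sets of 16488 and 16524 probes on each array. It is not quantile normalized, the method which the study names. Columns of ratios and log2 values hold comparisons and were not used, nor were 20 columns of second arrays that match no labeled sample. Here each raw signal was divided by the median of the reference probes, detected on all 4 arrays, of its probe set. Where the dimmer array had no detection, its signal was raised, where lower, to the smallest signal detected there, giving a bound written as at least. That signal is the smallest of the whole array and not the detection limit of the probe. A true difference can therefore be smaller than the bound, most of all for dim probes. Differences of at least 1 log2 unit, detected on the brighter array, were called. A gene was represented by the probe with the highest summed S/N. Symbols were updated through RefSeq (GRCm38.p6), which left 725 probes with the symbol of the file, 15710 without one and 391 with several, which were not named.

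Named genes were the 12 largest increases and decreases among genes detected on both arrays, the 10 best measured genes on each array alone with a bound of at least 4-fold, called members of 28 gene lists and 6 marker lists, Spp1, Apobec2, Mcoln3, Fbp2 and Abcg2, and up to 5 genes of the chromosome farthest from the rest. Other list members, genes with an S/N of at least 10 and genes with paired probes were chosen after their values were seen. Some genes that met these rules are not reported here. The comparison, members and lists were chosen with earlier results of these data known. With 1 array per line the number of arrays limits the precision, and no test was run. Alternatives covered scaling, detection and fold limits and the choice of probe. Calculations used Python 3.11.15, numpy 2.4.6 and pandas 2.3.3. The scaling and the calls of probes detected on both arrays were checked on simulated data. Those data held no probe detected on 1 array only, so the bounds were not checked.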

Additional observations from a re-analysis of the deposited data

How the results depend on the processing

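Scalings were compared gene by gene for 113 called genes, those that met the naming rule or were well measured. None of these changed direction, but 16 fell under 2-fold with at least 1 scaling, 13 of the lower and 3 of the higher ones. Of these, 13 did so with median scaling, 10 with the deposited signals, 8 with quantile normalization, 4 with 75th percentile scaling and 1 with probe sets centered on the compared pair. Ccn2 and Id1 were at -0.73 and -0.68 with the deposited signals. The dimmer Spp1 probe differed by 1.52 with the deposited normalized signals against 1.10. Of the shifted lists, complement, hypoxia and interferon stayed at least 0.25 from all genes, while matricellular proteins reached -0.16 and vessel growth factors -0.01 at an S/N of at least 10, and 12 other lists changed sign. With the deposited signals the melanin (0.25), stress response (0.26) and cadherin (-0.28) lists passed the limit. The chromosome medians stayed on their side of 0, at 0.07 to 0.09 for chromosome 19 and -0.08 to -0.05 for chromosome 18. Counts depended on the limits. Genes higher and lower, 492 and 515, became 74 and 110 with detection on both arrays, 254 and 206 at an S/N of at least 5, 971 and 861 at 1.5-fold, 76 and 210 at 4-fold, and 17 and 10 at an S/N of at least 10 on both arrays. Lower genes numbered 1746 with no detection filter, and higher genes 764 with the deposited signals. Probes higher and lower, 1109 and 1328, became 111 and 253, 538 and 490, 2012 and 2087, 178 and 579, and 27 and 16 under the same limits, and 1707 and 4670 without a filter. With an S/N of at least 5 on 1 array and under 2 on the other, genes seen on B16-RII alone numbered 164 and on B16-RI alone 89, against 418 and 405. The S/N limit of 10 and the removal of probes flagged over the limit were chosen after seeing the data. Of 19 genes with a probe beyond 2-fold, 1 was beyond it with both, which limits the counts that include dim probes. No paired analysis was run, because the columns of second arrays, headed with the names of the same lines, match no labeled sample and were not used. This leaves 1 array per line and no replicate to leave out.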

Other observations

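Of 720 olfactory receptor genes on the arrays, 110 were detected in B16, 90 in B16-RI, 106 in B16-RII and 102 in B16-RIIL, or 15.3%, 12.5%, 14.7% and 14.2%. Of the 145 detected on either compared array, 28 were called higher in B16-RII and 33 lower, including Olfr368, or 19.3% and 22.8%. The shares of all genes detected on either array were 5.34% and 5.59%, but that background is unlike. At most 90 of the 145 can have been detected on both arrays, against 7730 of all 9205 genes. Among all genes, 418 of 956 detected on B16-RII alone were called higher. Of 519 detected on B16-RI alone 405 were called lower. Of the 7730 only 74 were higher and 110 lower. Whether olfactory genes exceed other genes with like detection was not tested.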
